A study of Mus musculus with 8 samples.

Results

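Genes of collagen hydroxylation, folding and propeptide processing were examined in RNA-seq libraries of mouse knee cartilage. They were taken by symbol from a list and make up 10 of the 50462 gene identifiers in the table. All 10 were found, and all 10 received an adjusted p. The list holds the prolyl 4-hydroxylase alpha subunits P4ha1, P4ha2 and P4ha3, the lysyl hydroxylases Plod1, Plod2 and Plod3, the prolyl 3-hydroxylase P3h1 with its partner Crtap, the chaperone Serpinh1, and the C-propeptide enhancer Pcolce. Mice were wild-type C57BL/6J males in 2 groups of 4, with a library per animal. The naive group (day 0) was left unoperated and taken at 11 weeks of age. In the DMM group (day 42) the ligament tying the medial meniscus of the left knee to the tibia was cut at 11 weeks, which destabilises the meniscus, and the cartilage was taken at 17 weeks. DMM is a model of post-traumatic osteoarthritis, the joint disease in which articular cartilage is lost after injury. Sham surgery was not analysed here, and the effect of the operation and that of the 6 weeks of added age cannot be told apart.

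Collagen chains are modified while they are still in the endoplasmic reticulum (ER). Prolyl 4-hydroxylase turns prolines of the chains into 4-hydroxyproline, which stabilises the collagen helix at body temperature. Lysyl hydroxylases make hydroxylysine, the anchor for sugars and for the cross-links that later tie fibrils together. Both use iron, oxygen, 2-oxoglutarate and ascorbate. Serpinh1, also known as HSP47, holds the folded helix until it reaches the Golgi, and Pcolce speeds the removal of the C-propeptide outside the cell. Cartilage depends on these steps for its type II collagen network, and bone for its type I collagen.

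The 8 libraries held 12479443 to 16548002 estimated counts each. Naive library 2 had 16770 genes at 10 counts or more, while the other naive libraries had 18276 to 18467. A single identifier took 10.1 to 17.9% of counts in naive and 4.31 to 8.65% in DMM libraries. Values below are normalised counts, which are estimated counts divided by the library's size factor. A gene was called higher or lower where its DESeq2 adjusted p did not exceed 0.05 and its fold change was at least 1.5 (0.58 on the log2 scale).

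Of the 10 members, 6 were called higher in DMM and 0 lower. The 6 were P4ha3, Pcolce, Plod2, Serpinh1, P4ha1 and P3h1. Over all 17760 genes given an adjusted p, 7.75% were called higher and 5.92% lower. With the adjusted p alone, 8 of the 10 members were higher, compared with 11.4% of all genes, and 7 to 9 when a library was left out. All DMM libraries lay above all naive libraries for 8 of the 10 members, compared with 11.9% of all genes. The members had a median log2 fold change of 0.88, and all genes tested had a median of -0.02. The log2 fold change was above 0 for all 10 members and for 8579 of the 17760 genes. Leaving out any of the 8 libraries, naive library 2 included, kept all 6 calls. Tested against a change of 1.5-fold in place of 0, 1 of the 6 passed, P4ha3 (DESeq2 adjusted p = 0.0246). At an unadjusted DESeq2 p under 0.05, 9 members were higher and 0 lower, and edgeR called 7 higher and 0 lower. Markers of osteoblasts and osteocytes held 0.341 to 0.612% of counts in DMM and 0.141 to 0.210% in naive libraries, without overlap. The shares of chondrocyte and synovial fibroblast markers were also higher in DMM, and that of neutrophil lineage markers lower, each without overlap. The exact permutation test gave an adjusted p of 0.0643 for each of these lists. Their part in the members' values was not tested, and in whole tissue more cells of a type and more RNA per cell cannot be told apart. In the plot of counts by library, P4ha2 and Plod1 are the members whose groups overlap.

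**Figure D1:**
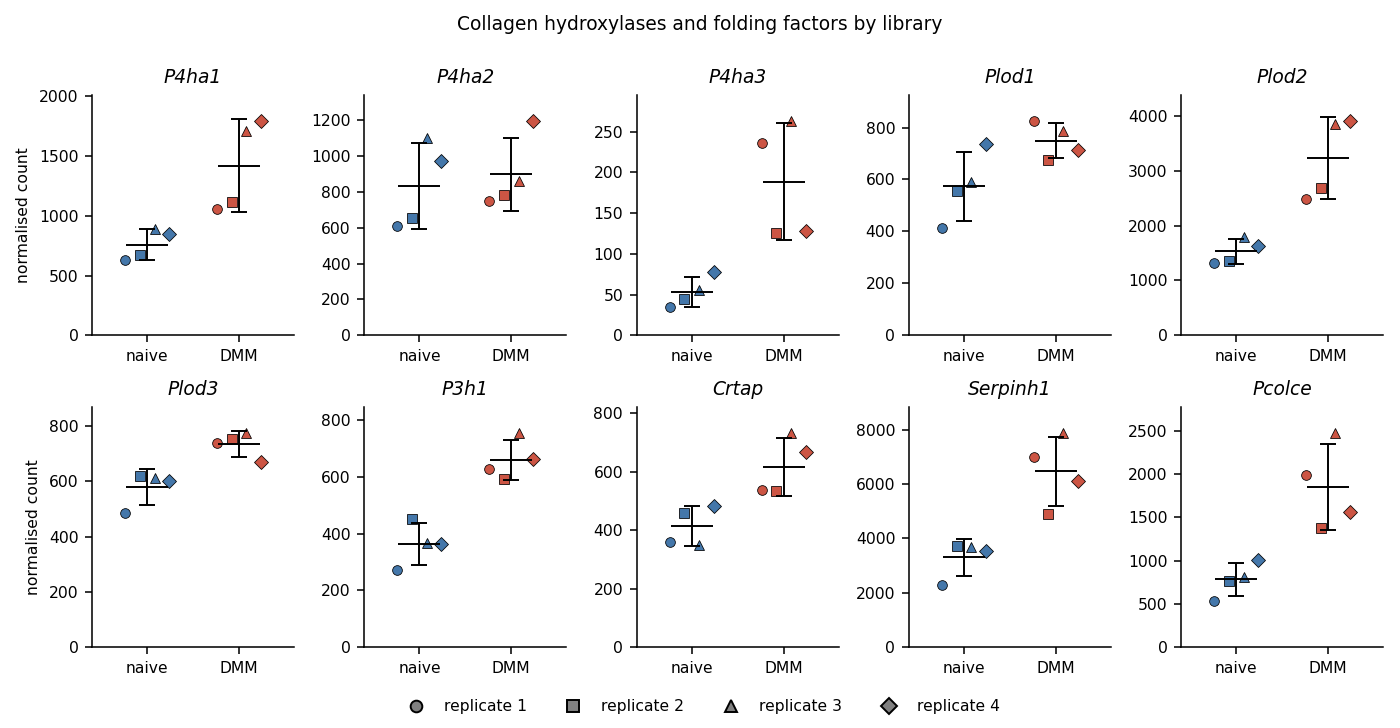
Normalised counts (y axis, linear, from 0) of the 10 members in 4 naive (blue) and 4 DMM (red) libraries, with marker shape giving the replicate number, long bars the mean and capped bars the SD. All 4 DMM points lie above all 4 naive points in every panel except those of P4ha2 and Plod1.

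The prolyl 4-hydroxylase alpha subunits, which carry the active site of the enzyme, did not share a call, since P4ha1 and P4ha3 were called higher and P4ha2 was not. P4ha1 (ENSMUSG00000019916, chromosome 10, 59323296 to 59373304, plus strand, GRCm38, protein coding as all 10 members are) had 627, 669, 893 and 849 normalised counts in naive libraries 1 to 4 and 1058, 1114, 1707 and 1797 in DMM libraries 1 to 4. The lowest DMM library lay above the highest naive library, and DMM libraries 3 and 4 stood above DMM libraries 1 and 2. P4ha1 was called higher in DMM (log2 fold change 0.90, SE 0.20, DESeq2 adjusted p = 0.000143). P4ha2 (ENSMUSG00000018906, chromosome 11, 54100095 to 54131665, plus strand), the alternative catalytic subunit that is prominent in chondrocytes and bone cells, had 607, 655, 1099 and 969 normalised counts in naive libraries 1 to 4 and 751, 779, 862 and 1197 in DMM libraries 1 to 4. Its groups overlapped almost throughout, since naive libraries 3 and 4 lay above DMM libraries 1 to 3. P4ha2 did not pass the test (log2 fold change 0.11, SE 0.22, DESeq2 adjusted p = 0.787), and the 95% interval of its log2 fold change was -0.32 to 0.53. Its log2 fold change was below 0 when naive library 1 was left out (-0.02) or DMM library 4 (-0.06). P4ha3 (ENSMUSG00000051048, chromosome 7, 100285520 to 100319699, plus strand), the least abundant alpha subunit, had 34.3, 43.9, 55.7 and 78.2 normalised counts in naive libraries 1 to 4 and 236, 126, 263 and 128 in DMM libraries 1 to 4. All 4 DMM libraries lay above all naive libraries, and DMM libraries 1 and 3 lay well above DMM libraries 2 and 4. P4ha3 showed the largest fold change of the 10 members (log2 fold change 1.83, SE 0.32, DESeq2 adjusted p = 6.26e-07), a 3.56-fold increase.

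Sequence upstream of the transcription start is shown for the 3 alpha subunits and for Serpinh1, because the subunits of this enzyme did not share a call and because Serpinh1 was the most abundant member. The 250 bases before each start come from RefSeq on GRCm38.p6, written 5′ to 3′ on the gene's strand. Capitals mark GGGCGG (the GC box bound by Sp1-type factors), ACGTG and GCGTG (cores of hypoxia response elements) on either strand. The windows are chr10:59323046-59323295 (plus strand) for P4ha1, chr11:54100674-54100923 (plus strand) for P4ha2, chr7:100285270-100285519 (plus strand) for P4ha3 and chr7:99353240-99353489 (minus strand) for Serpinh1.
P4ha1: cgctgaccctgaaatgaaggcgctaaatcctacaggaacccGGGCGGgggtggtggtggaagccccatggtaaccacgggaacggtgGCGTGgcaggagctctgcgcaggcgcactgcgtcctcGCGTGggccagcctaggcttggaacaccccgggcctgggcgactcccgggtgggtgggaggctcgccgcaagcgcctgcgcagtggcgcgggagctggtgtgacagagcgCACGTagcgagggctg
P4ha2: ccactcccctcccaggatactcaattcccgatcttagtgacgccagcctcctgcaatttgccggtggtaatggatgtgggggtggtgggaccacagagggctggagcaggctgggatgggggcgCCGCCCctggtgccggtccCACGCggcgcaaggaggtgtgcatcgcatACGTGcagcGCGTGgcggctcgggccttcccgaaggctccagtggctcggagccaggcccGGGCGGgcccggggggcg
P4ha3: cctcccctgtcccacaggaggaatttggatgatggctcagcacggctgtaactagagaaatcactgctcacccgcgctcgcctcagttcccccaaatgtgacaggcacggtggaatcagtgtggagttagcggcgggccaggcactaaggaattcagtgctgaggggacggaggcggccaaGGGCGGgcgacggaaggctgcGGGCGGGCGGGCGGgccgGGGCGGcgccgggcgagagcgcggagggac
Serpinh1: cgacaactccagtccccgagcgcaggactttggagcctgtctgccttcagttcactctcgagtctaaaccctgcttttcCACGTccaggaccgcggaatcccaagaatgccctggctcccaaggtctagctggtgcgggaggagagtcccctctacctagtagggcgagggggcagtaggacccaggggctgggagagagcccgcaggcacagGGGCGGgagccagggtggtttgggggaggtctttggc

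The P4ha1 and P4ha2 windows each held 1 ACGTG and 2 GCGTG. P4ha1 held 1 GGGCGG and P4ha2 held 2. The P4ha3 window held neither hypoxia core and 5 GGGCGG, some of which overlap. Serpinh1 held 1 ACGTG and 1 GGGCGG. The P4ha2 window lies inside the annotated gene, because the RefSeq start is downstream of the first annotated base. A window was found for 9 of the 10 members, and P3h1 had 2. ACGTG was present for 5 of the 9 members, GCGTG for 7 and GGGCGG for 7, compared with 16.6%, 28.2% and 32.7% of all 32851 windows. ACGTG or GCGTG was present for 8 of the 9 members and in 38.6% of all windows. These motifs are rich in G and C, and the median GC content was 60.2% over the 10 member windows and 52.4% over all windows. The ER stress response element was in 0 of the member windows and in 0.113% of all windows. Whether any of these motifs bears on the members' counts was not tested.

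Plod2 was the lysyl hydroxylase that was called. Plod2 (ENSMUSG00000032374, chromosome 9, 92542223 to 92608428, plus strand), the enzyme known for hydroxylating lysines of the telopeptides at the chain ends, had 1325, 1357, 1798 and 1635 normalised counts in naive libraries 1 to 4 and 2492, 2685, 3851 and 3914 in DMM libraries 1 to 4. Every DMM library lay above every naive library, and the order of the DMM libraries was the same as for P4ha1. Plod2 was called higher in DMM (log2 fold change 1.08, SE 0.18, DESeq2 adjusted p = 1.00e-07), a 2.12-fold increase. Plod1 (ENSMUSG00000019055, chromosome 4, 147909753 to 147936767, minus strand), which hydroxylates lysines within the helix, had 413, 555, 591 and 736 normalised counts in naive libraries 1 to 4 and 827, 675, 785 and 712 in DMM libraries 1 to 4. Naive library 4 lay above DMM libraries 2 and 4, so the groups overlapped, and Plod1 did not pass the test (log2 fold change 0.39, SE 0.17, DESeq2 adjusted p = 0.0846; 95% interval 0.05 to 0.72). Without naive library 4, Plod1 passed the adjusted p but not the fold threshold (0.53, DESeq2 adjusted p = 0.00483). Plod3 (ENSMUSG00000004846, chromosome 5, 136987019 to 136996648, plus strand), which also adds sugars to hydroxylysine, had 484, 620.0, 612 and 602 normalised counts in naive libraries 1 to 4 and 737, 752, 776 and 668 in DMM libraries 1 to 4. The groups did not overlap, and the adjusted p passed, but the change was under the fold threshold (log2 fold change 0.34, SE 0.12, DESeq2 adjusted p = 0.0236). The adjusted p of Plod3 no longer passed without naive library 1 (DESeq2 adjusted p = 0.112) or without DMM library 1 (0.0776), 2 (0.0788) or 3 (0.0740). The annotated exons of Plod3 overlap those of Znhit1 on the opposite strand by 529 bases, and those of Plod2 overlap Gm38391 by 346 bases. The strand setting of the counting is not given in the sources used here.

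P3h1 and Crtap form a complex with the prolyl isomerase Ppib that hydroxylates single prolines at their 3 position and assists folding. P3h1 (ENSMUSG00000028641, chromosome 4, 119232915 to 119248975, plus strand), the catalytic subunit, had 273, 451, 367 and 364 normalised counts in naive libraries 1 to 4 and 629, 592, 757 and 665 in DMM libraries 1 to 4. The groups were well apart, and P3h1 was called higher in DMM (log2 fold change 0.87, SE 0.16, DESeq2 adjusted p = 4.55e-06). Crtap (ENSMUSG00000032431, chromosome 9, 114375134 to 114390675, minus strand), its non-catalytic partner, had 361, 460.3, 349 and 484 normalised counts in naive libraries 1 to 4 and 537, 533, 734 and 666 in DMM libraries 1 to 4. Its groups did not overlap either, but the fold change of 1.496 fell just short of the 1.5-fold threshold (log2 fold change 0.58, SE 0.16, DESeq2 adjusted p = 0.0037). Leaving out a library in turn, Crtap passed in 4 of 8 cases (without naive library 2 or 4 or DMM library 1 or 2) with a log2 fold change of 0.49 to 0.66, and edgeR's quasi-likelihood test called it at 0.60 (adjusted p = 0.0206).

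The collagen chaperone gene Serpinh1 (ENSMUSG00000070436, chromosome 7, 99345376 to 99353239, minus strand) had 2291, 3714, 3701 and 3526 normalised counts in naive libraries 1 to 4 and 6978, 4915, 7893 and 6120.0 in DMM libraries 1 to 4. Naive library 1 lay well below the other naive libraries, and the lowest DMM library, library 2, lay above all of them. Serpinh1 was called higher in DMM (log2 fold change 0.97, SE 0.18, DESeq2 adjusted p = 7.18e-06), and its log2 fold change was 0.83 without naive library 1. Pcolce (ENSMUSG00000029718, chromosome 5, 137605103 to 137613784, minus strand), a secreted glycoprotein that binds the procollagen C-propeptide, had 536, 770.3, 814 and 1010.3 normalised counts in naive libraries 1 to 4 and 1991, 1374, 2481 and 1562 in DMM libraries 1 to 4. DMM libraries 1 and 3 were the highest, as for Serpinh1 and P4ha3. Pcolce was called higher in DMM (log2 fold change 1.24, SE 0.22, DESeq2 adjusted p = 7.42e-07), a 2.37-fold increase. Its exons overlap those of Fbxo24 on the same strand by 112 bases, and 2.61% of its 31-base words also occur in other genes, the highest share among the members.

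Naive library 1 was the lowest naive library for 9 of the 10 members, Crtap being the exception, whereas it was the lowest for 23.9% of all genes tested. Without it, the 6 called members kept their calls with smaller log2 fold changes, which were 0.82 for P4ha1, 1.67 for P4ha3, 1.02 for Plod2, 0.75 for P3h1 and 1.10 for Pcolce. DMM library 3 was the highest DMM library for 6 of the 10 members and for 31.2% of all genes. DMM library 2 was the lowest for 6 members and for 23.3% of all genes.

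Levels were compared between members as normalised counts per kilobase of the longest annotated transcript. Serpinh1 had the highest level per kilobase, with 1455 ± 301 in naive and 2848 ± 558 in DMM libraries (mean ± SD, n = 4 each), and exceeded Plod2 in all 8 libraries. Plod2 followed with 417 ± 62.0 in naive and 883 ± 205 in DMM libraries, and then Pcolce with 304 ± 75.8 in naive and 719.8 ± 191 in DMM libraries. Plod2 exceeded Pcolce in 4 of 4 naive but 3 of 4 DMM libraries, and this order turned when the mean transcript length was used. P4ha3 was lowest in both groups, with 22.1 ± 7.88 in naive and 78.3 ± 29.8 in DMM libraries, below every other member in all 8 libraries. The other 6 members lay between 114 for P3h1 and 272 for P4ha2 per kilobase in naive libraries. In naive libraries P4ha2 exceeded Crtap, the next in order, in 2 of 4. In DMM libraries these 6 lay between 183 for Plod1 and 369 for Crtap. Crtap exceeded P4ha1 in 3 of 4 DMM libraries and Plod3 exceeded P3h1 in 2 of 4, so these neighbours were not told apart. With the mean transcript length, the order among these 6 also changed. In DMM libraries they then lay between 383 for P3h1 and 766 for P4ha2.

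Because a ratio of counts within a library does not depend on the size factor, 8 ratios between members or partners were compared as log2 values. With 4 libraries a group, the smallest two-sided p of the exact permutation test is 0.0286, and none of the 8 ratios reached 0.05 after Benjamini-Hochberg adjustment over the 8. The P4ha1 to P4ha2 ratio was -0.10 ± 0.17 in naive and 0.65 ± 0.23 in DMM libraries (mean ± SD, n = 4 each). The P4ha2 to P4ha3 ratio was 3.98 ± 0.29 and 2.31 ± 0.75, and the Plod2 to Plod3 ratio 1.39 ± 0.18 and 2.11 ± 0.38. In these 3 ratios, and in that of Serpinh1 to P4hb, the groups did not overlap (exact permutation p = 0.0286 each, adjusted p = 0.0571). The other 4 ratios overlapped between groups. The DMM mean minus the naive mean was -0.93 for P4ha1 to P4ha3 (exact permutation p = 0.0571, adjusted p = 0.0914) and -0.65 for Plod1 to Plod2 (exact permutation p = 0.0857, adjusted p = 0.114). It was 0.07 for Plod1 to Plod3 (exact permutation p = 0.6, adjusted p = 0.6) and 0.30 for P3h1 to Crtap (exact permutation p = 0.114, adjusted p = 0.131).

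As shares of their family per transcript length, P4ha1 went from 39.5% ± 2.82 to 48.1% ± 3.75 (mean ± SD, n = 4 each), P4ha2 from 56.0% ± 2.72 to 40.7% ± 4.36 and P4ha3 from 4.53% ± 0.924 to 11.2% ± 4.55. P4ha2 held the largest share in each naive library and P4ha1 in each DMM library. The P4ha3 share ranged from 3.84 to 5.82% in naive and from 6.00 to 16.2% in DMM libraries, highest in DMM libraries 1 and 3. Plod2 held the largest share of the lysyl hydroxylases in all 8 libraries and went from 56.9% ± 3.15 to 67.9% ± 5.64, while Plod1 went from 18.9% ± 2.49 to 14.5% ± 2.74 and Plod3 from 24.2% ± 2.12 to 17.7% ± 3.15. These shares depend on the transcript used for the length. With the mean length of the annotated transcripts, P4ha2 remained the largest of its family in both groups (71.9% in naive and 57.9% in DMM libraries), while the direction of every share was the same.

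**Figure D2:**
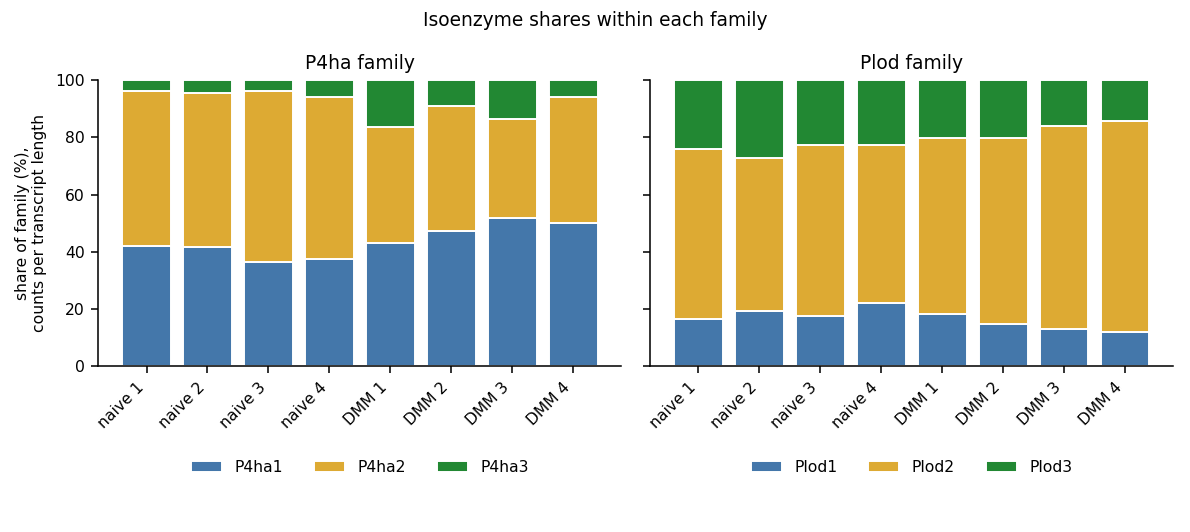
Share of each isoenzyme in its family (y axis, percent of normalised counts per base of the longest transcript) in the 8 libraries (x axis), as stacked bars. The P4ha3 segment is taller in the DMM bars, at 6.00 to 16.2%, than in the naive bars, at 3.84 to 5.82%, and the Plod2 segment runs from 61.5 to 73.9% in the DMM bars.

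The other genes of the pathway were taken from 3 lists. Of the 33 that received an adjusted p, 13 were called higher in DMM and 0 lower, with a median log2 fold change of 0.53. At an unadjusted DESeq2 p under 0.05, 23 were higher and 2 lower, the latter being Tmem38b and Klhl12, and edgeR called 13 higher and 0 lower, with Sec31a in place of Pcolce2. Among 12 partners in hydroxylation, glycosylation and proline isomerisation, 6 were called higher and 0 lower (median 0.67). P3h4, a scaffold that works with P3h3 in lysine hydroxylation of the helix, rose from 173 ± 33.9 to 411 ± 53.2 normalised counts (mean ± SD, 4 libraries each, log2 fold change 1.26, SE 0.18, DESeq2 adjusted p = 2.85e-10). P3h3 itself rose by 0.90 (DESeq2 adjusted p = 6.74e-06). Fkbp10, the collagen prolyl isomerase also known as FKBP65, rose from 735 ± 63.2 to 1383 ± 119 normalised counts (mean ± SD, 4 libraries each, log2 fold change 0.91, SE 0.11, DESeq2 adjusted p = 2.52e-13), and had the smallest adjusted p of the 33. The related isomerases Fkbp7, Fkbp14 and Fkbp9 rose by 1.05, 0.85 and 0.77.

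Neither P4hb nor Ppib, which complete the members' own complexes, passed the test. P4hb, the protein disulphide isomerase that forms the beta subunit of prolyl 4-hydroxylase, had 4521, 5393, 5186 and 5114 normalised counts in naive libraries 1 to 4 and 5059.6, 4918, 6415 and 5789.7 in DMM libraries 1 to 4. The groups overlapped, and the fitted log2 fold change was 0.13 (DESeq2 adjusted p = 0.457), with a 95% interval of -0.09 to 0.36. The Serpinh1 to P4hb ratio was -0.64 ± 0.23 in naive and 0.21 ± 0.21 in DMM libraries (mean ± SD, n = 4 each), without overlap. For Ppib, the isomerase of the P3h1 and Crtap complex, the log2 fold change was 0.18 (DESeq2 adjusted p = 0.262), with an interval of -0.04 to 0.40. P3h2, another prolyl 3-hydroxylase, was at 0.57 (DESeq2 adjusted p = 0.00812) and Colgalt2, a galactosyltransferase for hydroxylysine, at 0.53 (DESeq2 adjusted p = 0.0164), both under the fold threshold, and both were called without naive library 3 or 4 or DMM library 1. Colgalt1, which does the same step, was at 0.13 (DESeq2 adjusted p = 0.489). Tmem38b, an ER cation channel gene, did not pass the test (-1.13, DESeq2 adjusted p = 0.0546), but an exon of it overlaps a 5S ribosomal RNA gene by 119 bases, and its counts of 8500.0 to 50368 per library are therefore uncertain.

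Of 14 genes of procollagen export and its regulators, 3 were called higher and 0 lower (median 0.44). These were Creb3l1 (1.03, DESeq2 adjusted p = 1.49e-10), a transcription factor known to drive collagen production in bone, Kdelr3 (0.94), a receptor that returns proteins to the ER, and Sec24d (0.71), part of the vesicle coat that carries procollagen out. Sec31a, of the same coat, was just under the fold threshold (log2 fold change 0.58, SE 0.11, DESeq2 adjusted p = 8.85e-06) and was called when any library but naive 1, naive 3 or DMM 3 was left out. Of 7 tested genes of propeptide processing, 4 were called higher and 0 lower (median 0.76). Bmp1, the C-proteinase that Pcolce assists, rose from 1033 ± 97.4 to 1751 ± 261 normalised counts (mean ± SD, 4 libraries each, log2 fold change 0.76, SE 0.13, DESeq2 adjusted p = 6.99e-07). The N-proteinases Adamts2 and Adamts14 rose by 0.87 and 0.86. Pcolce2, the paralogue of Pcolce, rose by 0.85 (DESeq2 adjusted p = 0.0126) but with overlapping groups, and the call was lost without naive library 1 (DESeq2 adjusted p = 0.0595), DMM library 3 (0.0746) or DMM library 4 (0.0560). Neither edgeR (adjusted p = 0.0565) nor limma-voom (adjusted p = 0.0901) called Pcolce2. The Pcolce2 log2 fold change ran from 0.62 to 1.07 over the 8 leave-one-out fits.

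Of 12 general ER chaperones, 0 were called in either direction by DESeq2 or edgeR, 1 was higher and 1 lower at an unadjusted DESeq2 p under 0.05, and the median log2 fold change was 0.01. Hspa5, the ER chaperone also known as BiP, had 4545, 5304, 4752 and 5147 normalised counts in naive libraries 1 to 4 and 3923, 4509.6, 6113 and 5709 in DMM libraries 1 to 4. Its groups overlapped, and its log2 fold change had a 95% interval of -0.25 to 0.33 around 0.04 (DESeq2 adjusted p = 0.902). The smallest adjusted p of the list was that of Sdf2l1 (-0.43, DESeq2 adjusted p = 0.0605), followed by Pdia4 (0.29) and Canx (-0.18). Of 7 hydroxylases outside collagen synthesis that use the same cosubstrates, 0 were called by DESeq2 or edgeR (median 0.07), and 1 passed an unadjusted DESeq2 p of 0.05. Egln1, an oxygen sensor that hydroxylates hypoxia-inducible factors, was that gene, and it passed the adjusted p but not the fold threshold (0.31, DESeq2 adjusted p = 0.00631). Egln3 and Ogfod1 were at -0.35 and 0.21 and did not pass. Over all genes tested, 7.75% were called higher and 5.92% lower, and at those shares lists of 12 and 7 genes would hold few calls.

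**Figure D3:**
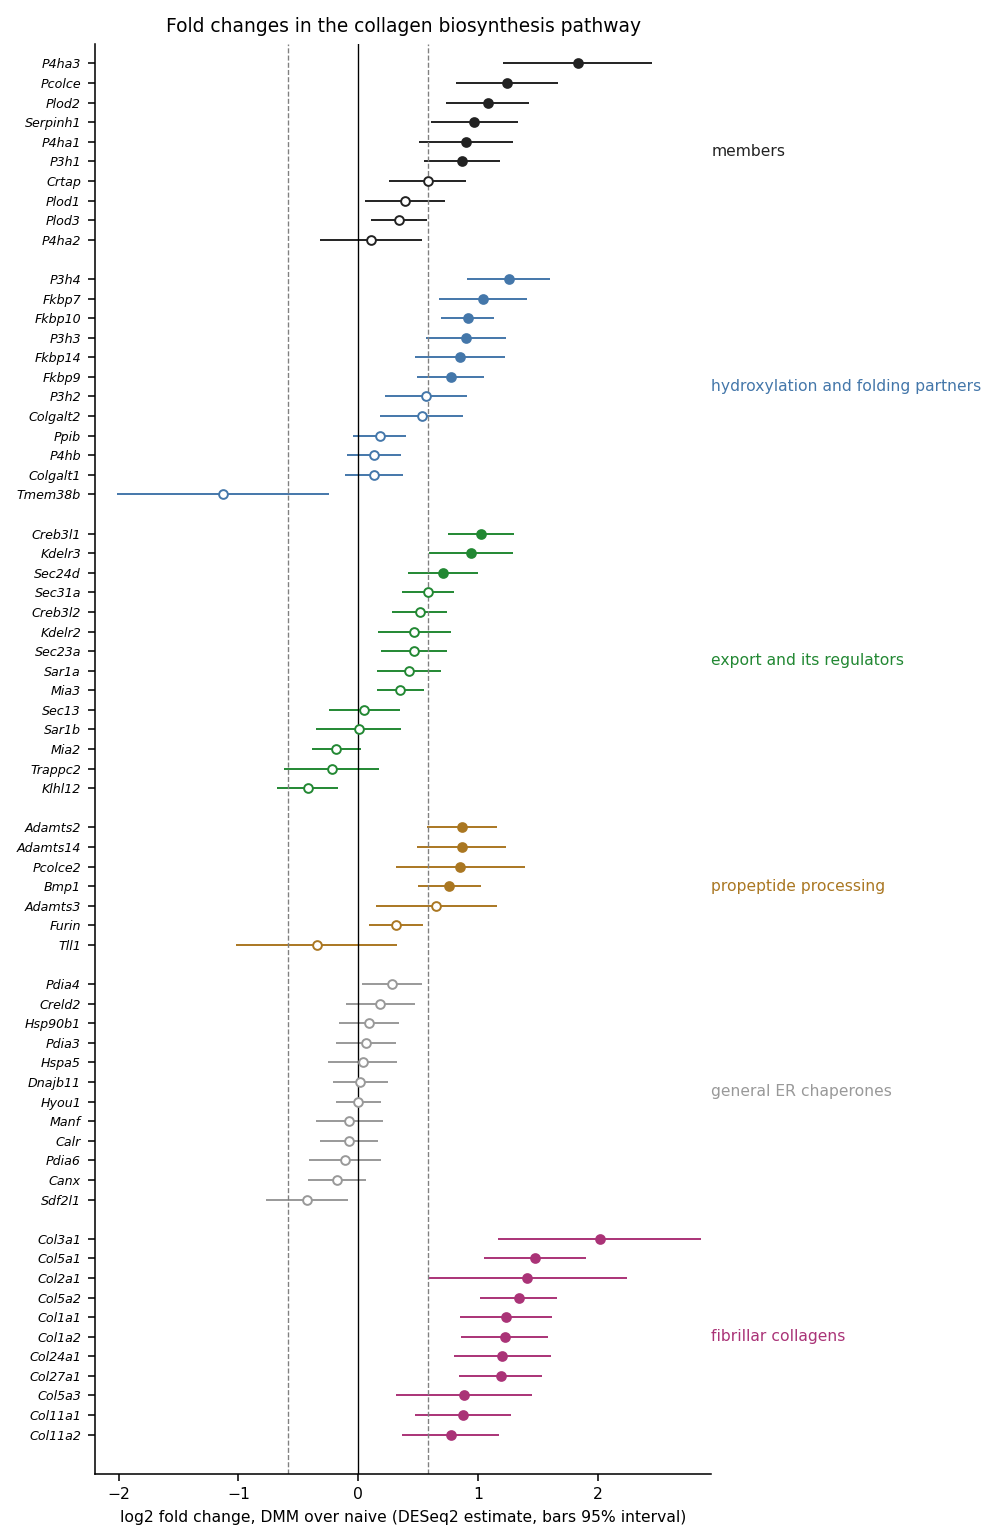
Log2 fold change of DMM over naive (x axis, DESeq2 estimate with bars for its 95% interval) for the 10 members, the pathway lists, the general ER chaperones and the fibrillar collagens (y axis, genes by list). Filled points were called, dashed lines mark 1.5-fold, and the chaperone points, with a median of 0.01, lie around 0 while all 11 collagens are filled.

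All 11 fibrillar collagen genes, whose chains the members act on, were called higher in DMM, 10 of them also by edgeR, which did not call Col5a3 (median log2 fold change 1.22, between 0.77 for Col11a2 and 2.02 for Col3a1). Those with the smallest adjusted p were Col5a2 (1.34), Col5a1 (1.48) and Col27a1 (1.19). Their summed normalised count was 291248 ± 80597 in naive and 713943 ± 96677 in DMM libraries (mean ± SD, n = 4 each), 2.45 times as high. Members were therefore also expressed per 1000 of these collagen counts, as a description with no test. The Pcolce mean moved least, from 2.80 ± 0.918 in naive to 2.57 ± 0.394 in DMM libraries. P4ha3 was the member with a higher mean in DMM, from 0.192 ± 0.0881 in naive to 0.257 ± 0.0660 in DMM libraries, with overlap. The means of the other 8 members were 0.428 to 0.833 times those in naive libraries. Plod1, P3h1, Crtap and Plod3 had lower values in every DMM library than in any naive library, as shown for Plod3, which went from 2.06 ± 0.376 in naive to 1.04 ± 0.120 in DMM libraries. The collagen sum rose, so such values fall even for a gene whose own count does not change. Each of these members had a higher mean normalised count in DMM. The share of all genes that separate in this way was not computed. P4ha2 per collagen count went from 3.01 ± 1.06 in naive to 1.29 ± 0.421 in DMM libraries, with overlap between naive library 2 and DMM library 4. The sum rests largely on Col1a1 and Col1a2, and naive library 2 had the highest collagen sum of the naive group (404370.0).

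**Figure D4:**
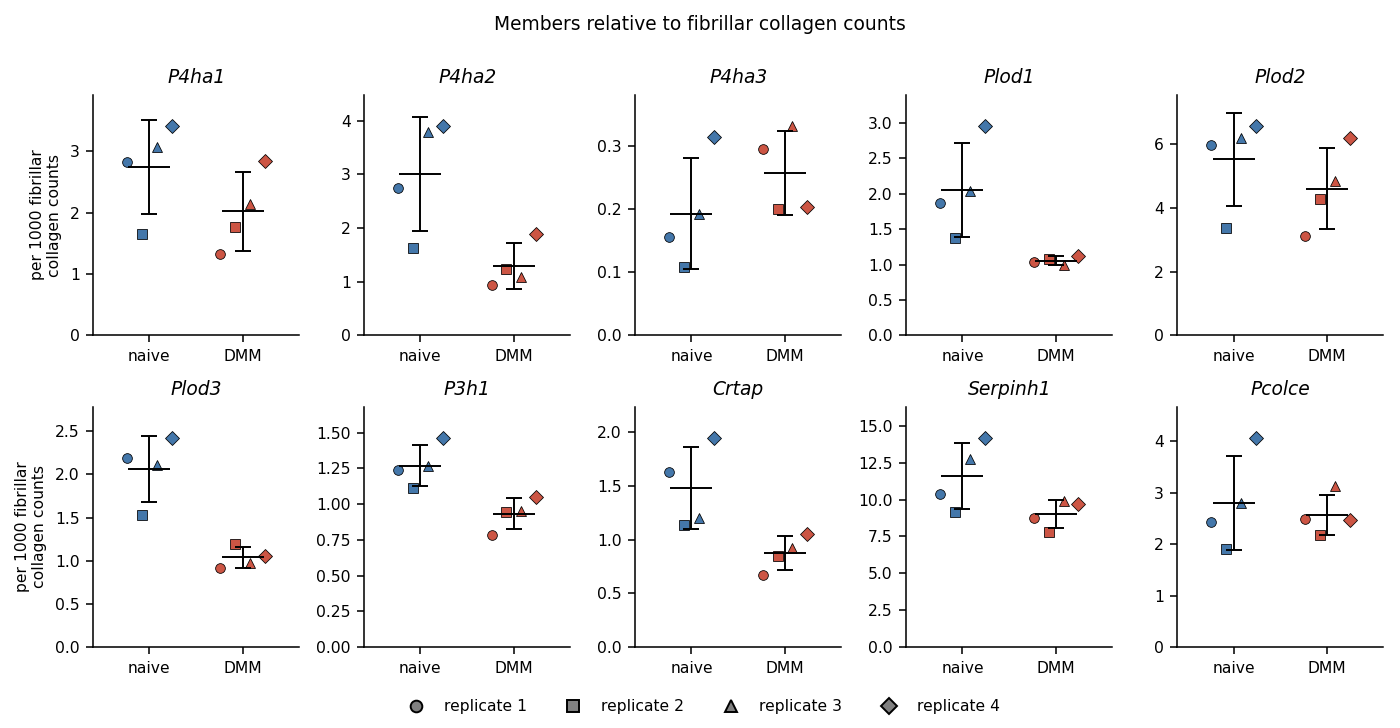
Members per 1000 normalised counts of the 11 fibrillar collagen genes (y axis, linear, from 0) in 4 naive (blue) and 4 DMM (red) libraries, with marker shape giving the replicate number, long bars the mean and capped bars the SD. The groups are apart, with DMM lower, for Plod1, Plod3, P3h1 and Crtap, and the mean is higher in DMM for P4ha3 alone. The summed collagen count itself was 2.45 times as high in DMM.

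Within the DMM group the members followed more than 1 order of libraries. P4ha1, P4ha2 and Plod2 were lowest in library 1, then 2, 3 and 4, whereas P4ha3, Serpinh1 and Pcolce were lowest in library 2, then 4, 1 and 3. P3h1 and Crtap were lowest in library 2, then 1, 4 and 3. The non-member genes with the most similar pattern over the 8 libraries were sought among 11029 genes averaging 100 normalised counts or more, by the root mean square difference of centred log2 counts, given in brackets. For P4ha1 they were Bgn (0.0821) and Susd5 (0.105), and for Plod2 Mgp (0.127) and Bgn (0.142). Bgn and Mgp encode matrix proteins of cartilage and bone, and Bgn was among the nearest for both P4ha1 and Plod2. For P4ha3 they were Col15a1 (0.151) and Igsf10 (0.154), for Serpinh1 Clec11a (0.0949) and Kdelr3 (0.116), and for Pcolce Loxl2 (0.0994) and Edil3 (0.103). Loxl2 encodes a lysyl oxidase, the class of enzyme that starts collagen cross-links, and Kdelr3 is on the export list above. For P3h1 they were Vkorc1 (0.0748) and Capn6 (0.103). The measure takes in the difference between groups as well as the order within them.

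**Figure D5:**
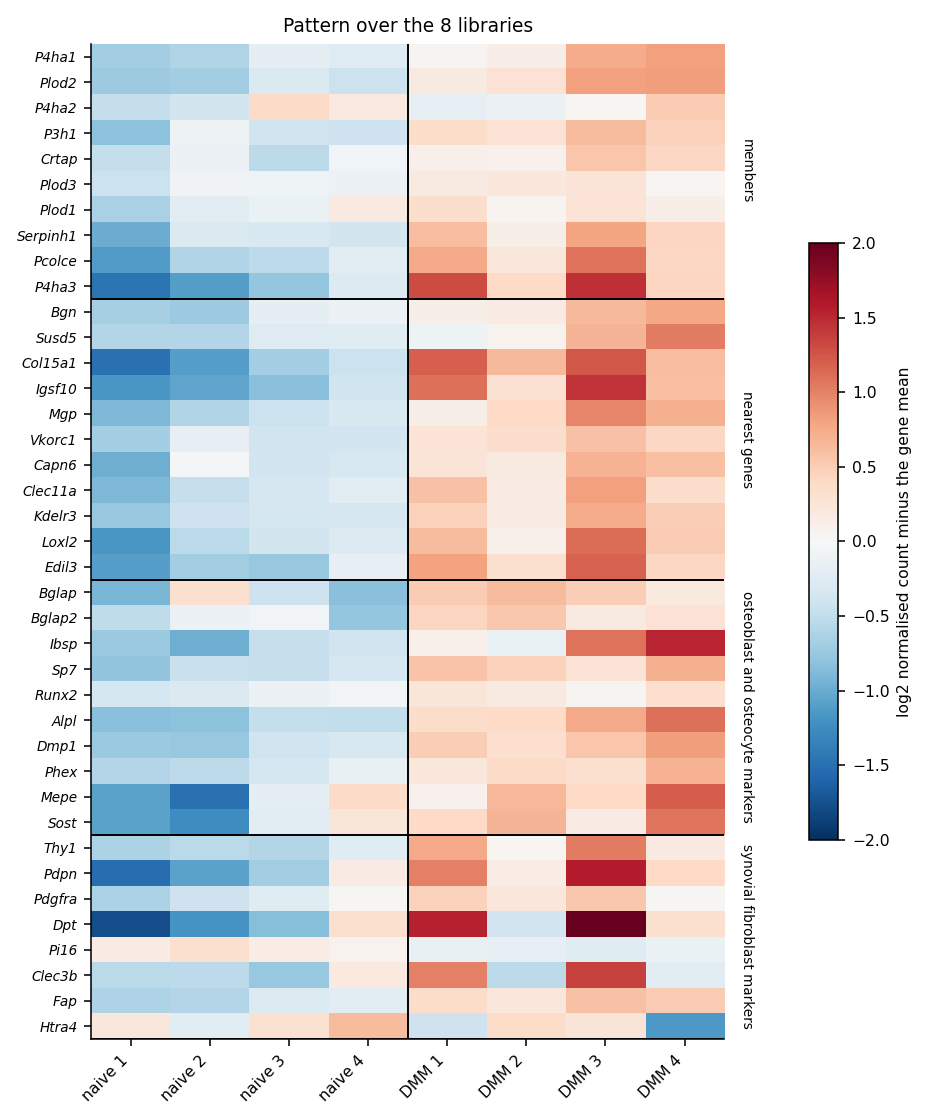
Log2 normalised count minus the gene's mean over the 8 libraries (colour) for the 10 members, their nearest non-member genes, and osteoblast and osteocyte and synovial fibroblast markers (rows) in 4 naive and 4 DMM libraries (columns). Within the DMM group, P4ha3, Plod1, Pcolce and Serpinh1 are highest in libraries 1 and 3, as are 5 of the 8 synovial fibroblast markers. P4ha1, P4ha2, Plod2, P3h1 and Crtap are highest in libraries 3 and 4, as are 3 of the 10 osteoblast and osteocyte markers. The other markers of these lists follow other orders. Of markers not drawn, libraries 3 and 4 were highest for 8 of 10 chondrocyte, all 8 neutrophil lineage and 4 of 8 erythroid markers. Libraries 1 and 3 were highest for 3 of 8 erythroid markers. The share of all genes with these orders was not computed.

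The labels give the samples as cartilage and chondrocytes. All 10 chondrocyte markers were detected in every library, and together they held 0.298 to 0.432% of counts in naive and 0.691 to 1.32% in DMM libraries (exact permutation p = 0.0286, adjusted p = 0.0643). Adjustment was over the 9 marker lists. Acan, Col2a1, Col11a1, Sox9 and Comp were called higher in DMM. The other 5 were not called (log2 fold change 0.79 for Hapln1, 0.46 for Cnmd, 0.40 for Chad, -0.29 for Matn3 and -0.36 for Col9a1). No marker of any list was at 0 in any library. Osteoblast and osteocyte markers held 0.141 to 0.210% of counts in naive and 0.341 to 0.612% in DMM libraries (exact permutation p = 0.0286, adjusted p = 0.0643), and 8 of 10 were called higher. Synovial fibroblast markers held 0.0233 to 0.0382% of counts in naive and 0.0434 to 0.0670% in DMM libraries (exact permutation p = 0.0286, adjusted p = 0.0643), and 5 of 8 were called higher. Clec3b (log2 fold change 0.98), Pi16 (-0.35, DESeq2 adjusted p = 0.00966) and Htra4 (-0.39) were not called. Within the DMM group, P4ha3, Plod1, Pcolce and Serpinh1 had their 2 highest values in libraries 1 and 3, as did 5 of the 8 synovial fibroblast markers (Thy1, Pdpn, Pdgfra, Dpt and Clec3b). Of the other 3 markers, Fap was highest in libraries 3 and 4, Htra4 in 2 and 3, and Pi16 in 1 and 4. Dpt had 128, 193, 243 and 549.9 normalised counts in naive libraries 1 to 4 and 1278, 336, 1743 and 549.6 in DMM libraries 1 to 4. P4ha1, P4ha2, Plod2, P3h1 and Crtap were highest in DMM libraries 3 and 4, as were 8 of the 10 chondrocyte markers, all but Acan and Sox9, and 3 of the 10 osteoblast and osteocyte markers (Ibsp, Alpl and Dmp1). The remaining 7 were highest in libraries 1 and 2 (Bglap and Bglap2), 1 and 4 (Sp7 and Runx2) or 2 and 4 (Phex, Mepe and Sost). All 8 neutrophil lineage markers and 4 of the 8 erythroid markers were also highest in DMM libraries 3 and 4. DMM libraries 1 and 3 were also highest for 3 of the 8 erythroid markers. The share of all genes with these pairs of highest libraries was not computed. DMM library 3 was the highest DMM library for 31.2% of all genes tested. What these shared orders reflect was not tested. Alpl had 1902, 1918, 2435 and 2415 normalised counts in naive libraries 1 to 4 and 4371, 4445, 5723 and 7264 in DMM libraries 1 to 4.

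Neutrophil lineage markers held 0.869 to 1.22% of counts in naive and 0.409 to 0.860% in DMM libraries (exact permutation p = 0.0286, adjusted p = 0.0643), with 8 of 8 called lower by DESeq2 and 6 by edgeR, and erythroid markers 1.07 to 1.80% of counts in naive and 0.594 to 1.26% in DMM libraries (exact permutation p = 0.0857, adjusted p = 0.129), with 7 of 8 called lower. The shares of macrophage, endothelial, skeletal muscle and B cell markers had overlapping groups. Of 6 endothelial markers, 2 were called higher and 1 lower, and 0 macrophage, skeletal muscle or B cell markers were called by DESeq2 or edgeR. At an unadjusted DESeq2 p under 0.05, 1 macrophage marker was lower and 1 B cell marker higher. The part of any of these lists in the members' values was not tested.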

How the data were processed

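RNA from medial knee cartilage of 4 naive and 4 DMM mice was sequenced. The deposited table holds estimated counts per gene, which the authors made with Kallisto from trimmed reads, with transcripts then summed by gene. Of its values, 39.2% are not whole. The methods name mouse build GRCm38, and the labels name GRCh38, which is a human build. All 140 genes of the lists used here carry mouse Ensembl identifiers, so the table does not rest on GRCh38. The exact mouse build behind it was not settled. The methods and the labels also name different library kits. A symbol was found for 48855 of 50462 identifiers, with coordinates from GENCODE vM21 (GRCm38).

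Counts were rounded and fitted over all genes by DESeq2's Wald test (version 1.42.0, R version 4.3.3), as in the methods, without covariates and with default filters. Ratios (0.5 counts added) and marker shares were compared with two-sided exact permutation tests over all 70 assignments. Alternatives were edgeR version 4.0.16, limma-voom (limma version 3.58.1), other size factors, filters and thresholds, a replicate block and leaving out each library. In simulated data for this comparison with 200 genes changed by 2-fold, DESeq2 called 156 of them and 17 unchanged genes over 20078 genes, and edgeR called 143 and 7 over 18511. Samples with the same replicate number did not deviate together (correlations -0.10 to 0.12), so the numbers were not treated as pairs.

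The members, lists and tests were chosen with earlier results of these data known. Named genes are the members, 10 listed partners (P4hb, Ppib, Fkbp10, P3h2, P3h3, P3h4, Bmp1, Pcolce2, Colgalt1 and Colgalt2), the 3 genes with the smallest adjusted p in each pathway, chaperone, hydroxylase and collagen list, and the 2 non-member genes nearest in pattern to each called member. Fkbp9, Fkbp14, Sec24d, Tmem38b, Klhl12, Hspa5, Col1a1, Col1a2, Col3a1, Col5a3, Col11a2 and the single marker genes were named outside this rule, after their values were seen. Intervals on fold changes come from the DESeq2 standard error.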

Additional observations from a re-analysis of the deposited data

Results flagged for a closer look

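In 136 groups of 4 libraries, the highest or lowest library was compared with the other 3. In 7 of them it lay further away, relative to the range of the group, than Dixon's 95% limit for 4 samples allows, where chance gives about 6.8. Naive library 1 was low for 3 of these values. Plod3 had 484 normalised counts there and 602 to 620.0 in the other naive libraries, Serpinh1 had 2291 and 3526 to 3714, and the log2 ratio of Serpinh1 to P4hb was -0.98 there and -0.54 to -0.49 elsewhere. Colgalt1 had 939 normalised counts in naive library 2, whereas the remaining naive libraries held 782 to 807. Egln3 had 198 in naive library 3, compared with 150.4 to 158. Erythroid markers held 1.26% of counts in DMM library 3 and 0.594 to 0.647% in the other DMM libraries. Skeletal muscle markers held 0.00700% of counts in DMM library 1 and 0.000407 to 0.000998% in the others.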

How the results depend on the processing

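The count of 6 members called higher was 7 under edgeR, limma-voom, TMM factors, total count scaling and total count scaling without the most abundant identifier (an alternative chosen after seeing the data), Crtap being the added gene, and 8 with no fold threshold. It was 6 to 7 when a library was left out, 6 under both other filters on low counts and without independent filtering, and 1 when tested against a null of 1.5-fold. The count of 13 pathway genes called higher was 20 under total count scaling, 22 with no fold threshold and 1 against the 1.5-fold null. The count of 0 pathway genes called lower was 1 with no fold threshold (Klhl12) and 0 to 1 when a library was left out, the 1 being Tmem38b without naive library 1 (-1.33, DESeq2 adjusted p = 0.0246) or DMM library 1 (-1.37, DESeq2 adjusted p = 0.0365). The P4ha2 log2 fold change ran from -0.061 to 0.270 when a library was left out, being -0.061 without DMM library 4 and -0.0153 without naive library 1. Total count scaling moved the median of all genes to 0.14 on the log2 scale, from -0.01, and the members' median to 1.04, from 0.88. With the replicate number as a block, 6 members were called higher, and none of the calls on 45 single genes changed, but the adjusted p of Plod3 no longer passed (0.0796, from 0.0236). The block cannot bring a ratio below a p of 0.125. The numbers share no stated link, and not every library correlated best with its own number. Why these settings gave other values was not tested. The lowest value of any member was 34.3 normalised counts, for P4ha3.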
